A study of Mus musculus with 4 samples.

Results

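The 67 protein-coding genes described here encode the nuclear part of the mitochondrial respiratory chain. They were chosen by symbol from 22298 genes listed in the series: the Nduf genes of the A, B, C, S and V classes, without the Ndufaf assembly factors, for complex I (37 genes), Sdha to Sdhd for complex II (4 genes), the Uqcr genes for complex III (8 genes), and the Cox4 to Cox8 genes for complex IV (18 genes). The symbols alone decide membership, without any expression value, though the set was proposed with earlier results of these data known. The tamoxifen group held 2 libraries and the vehicle group held 2 libraries, all from primary hepatocytes of male C57BL/6 mice labelled WT and taken at day 5. Mice of both groups had been on a methionine- and choline-deficient (MCD) diet for 6 weeks, which gives a model of steatohepatitis, and the study bought its mice at an age of 8 weeks. The tamoxifen group then received the drug at 100 mg/kg by intraperitoneal injection on 5 consecutive days, and the vehicle group received the corn oil without the drug. The labels do not say whether libraries of a group came from separate mice or pools, so the spread between them may be technical.

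The respiratory chain sits in the inner mitochondrial membrane. Complex I takes electrons from NADH and complex II takes them from succinate, both pass them through coenzyme Q to complex III, and cytochrome c carries them on to complex IV, which reduces oxygen. Complexes I, III and IV pump protons as they do so, and ATP synthase (complex V) uses the gradient. All of the complex II subunits and most subunits of the other complexes are encoded in the nucleus, while a few core subunits of complexes I, III and IV are made from mitochondrial DNA. Hepatocytes are rich in mitochondria and use the chain to reoxidise the carriers that fatty acid oxidation and the tricarboxylic acid (TCA) cycle reduce.

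Values are FPKM, fragment counts scaled by transcript length and library depth. Depth, estimated from the spacing of low values, ran from about 16700000 to 20800000 fragments per library. The 100 most abundant genes held 62.6% and 65.0% of the summed FPKM in the tamoxifen libraries, against 53.8% and 46.1% in the vehicle libraries. Of 14 Kupffer cell and macrophage markers, all 14 were lower after tamoxifen (summed level 170.4 and 269 FPKM, against 2261 and 4368 FPKM with vehicle). The same held for all 8 liver endothelial markers and all 9 stellate cell and fibroblast markers. Of all genes tested, 46.7% were called lower. Vehicle 2 stood apart, with 10 pancreatic acinar markers at a summed 1003 FPKM, against 8.13 FPKM in vehicle 1. They summed to 8.01 and 43.9 FPKM in the tamoxifen libraries. The 5 cholangiocyte markers summed to 537 FPKM in vehicle 2, 201 FPKM in vehicle 1, and 53.0 and 94.7 FPKM in the tamoxifen libraries. Most of that sum was 1 gene, Spp1, at 509 FPKM in vehicle 2 and 192 FPKM in vehicle 1. Without vehicle 2, the 59 subunits tested had a median log2 fold change of 0.14, against -0.45 for all genes tested. All 10 hepatocyte markers had positive log2 fold changes (16.2% of all genes tested), with a median of 0.94. Of these markers, 5 passed the test as higher (4.31% of all genes). After quantile normalization 3 passed as higher (13.4% of all genes), with 7 positive. The defining hepatocyte transcripts were abundant in every library, with Alb, serum albumin, at 50399 and 45402 FPKM in tamoxifen libraries and 35301 and 26382 FPKM in vehicle libraries. These shifts in markers were measured in the same libraries as every subunit below, and their part in the subunit values was not tested. In bulk RNA, fewer cells of a type and less RNA per cell cannot be told apart.

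Promoter windows (250 bases before to 50 after the start, RefSeq, GRCm38.p6) were given for 53 of the 67 genes, as 55 windows. They were searched on both strands for motifs of 3 factors known to act on respiratory chain promoters: NRF1 (GCGC, any 1 base, then TGCGC), the ETS factors that include GABP (CCGGAAG), and YY1 (AAGATGGC). The NRF1 letters stood in 12 of 55 windows (21.8%), against 4.60% of all 32851 windows in the table. The ETS letters stood in 11 of 55 windows (20%), against 8.86%, and the YY1 letters in 7 of 55 (12.7%), against 2.75%. The motifs do not overlap each other in the windows shown. A match is a description of the letters and not of a bound site. The 4 windows printed are from Cox6a1 and Sdhd, which hold both the NRF1 and the ETS letters, and from Ndufa6 and Ndufb6, which had the largest positive log2 fold changes in complex I; capitals mark NRF1 and ETS matches on either strand. They lie on the minus strand at chr5:115348909-115349208 (Cox6a1), chr9:50603800-50604099 (Sdhd), chr15:82354242-82354541 (Ndufa6) and chr4:40279372-40279671 (Ndufb6), and are written 5′ to 3′ along the gene.
Cox6a1: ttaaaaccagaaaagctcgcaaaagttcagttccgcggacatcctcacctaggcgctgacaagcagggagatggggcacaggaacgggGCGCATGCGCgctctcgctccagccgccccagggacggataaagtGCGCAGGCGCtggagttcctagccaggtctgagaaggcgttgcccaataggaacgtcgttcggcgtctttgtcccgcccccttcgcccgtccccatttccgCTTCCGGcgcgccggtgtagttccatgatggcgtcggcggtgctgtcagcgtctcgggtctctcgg
Sdhd: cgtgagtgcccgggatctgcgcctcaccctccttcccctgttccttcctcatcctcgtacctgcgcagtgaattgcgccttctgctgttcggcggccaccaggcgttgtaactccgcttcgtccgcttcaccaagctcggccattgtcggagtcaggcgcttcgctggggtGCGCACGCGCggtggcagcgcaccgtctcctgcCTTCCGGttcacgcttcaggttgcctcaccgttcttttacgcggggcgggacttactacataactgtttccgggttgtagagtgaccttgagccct
Ndufa6: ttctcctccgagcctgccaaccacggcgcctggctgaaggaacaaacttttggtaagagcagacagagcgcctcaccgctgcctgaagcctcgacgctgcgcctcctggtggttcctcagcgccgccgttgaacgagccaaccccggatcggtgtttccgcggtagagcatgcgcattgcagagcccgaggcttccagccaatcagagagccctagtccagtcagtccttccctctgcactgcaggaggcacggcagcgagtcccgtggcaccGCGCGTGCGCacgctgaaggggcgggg
Ndufb6: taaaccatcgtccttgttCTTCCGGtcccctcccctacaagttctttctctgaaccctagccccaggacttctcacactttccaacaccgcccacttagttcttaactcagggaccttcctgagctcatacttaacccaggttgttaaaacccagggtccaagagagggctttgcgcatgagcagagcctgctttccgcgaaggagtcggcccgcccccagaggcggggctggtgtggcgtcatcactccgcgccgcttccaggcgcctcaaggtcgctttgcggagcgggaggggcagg
Among tested members with a window, the median log2 fold change was 0.05 for the 11 genes with the NRF1 letters, running between -0.30 (Sdha) and 0.53 (Ndufa6), and 0.10 for the 38 genes without them. It was 0.05 for 11 genes with the ETS letters and -0.06 for 7 genes with the YY1 letters. None of the genes with a motif passed the test for a change on FPKM as deposited, where 2 of 61 tested members were lower and 1 was higher. Most of them were called higher after rescaling by median ratios, as were 54 of all 61 tested members. Some were called higher after quantile normalization, among them Ndufa6 and Ndufb6.

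All 67 genes were in the files, and 61 reached 1 FPKM in at least 2 of 4 libraries and were tested with limma as part of 11633 genes. The 6 that did not are tissue-restricted complex IV isoforms. At an adjusted p under 0.05, 2 of 61 members were lower after tamoxifen (3.28%, against 46.7% of all genes tested) and 1 was higher (1.64%, against 4.31%). Both lower ones, Cox6a2 and Ndufa4l2, met the filter only through the vehicle libraries, so a call there could only be a lower one. Among the 59 members with a mean of at least 5 FPKM, 0 were lower and 1 was higher in the same fit, against 42.9% lower and 5.78% higher among the 7529 genes with such a mean (limma; 4 of the 59 passed at an unadjusted p under 0.05). At an unadjusted p under 0.05 there were 6 members (9.84%), against 58.9% of all genes. The members' median log2 fold change, tamoxifen over vehicle, was 0.09, while that of all genes tested was -0.60. The 95% interval of the change lay within 2-fold in either direction for 57 of 61 members (93.4%), against 33.1% of all genes, and the other 4 were Cox6a2, Ndufa4l2, Cox7a2l and Uqcrq. A log2 fold change above 0 was seen for 39 of 61 members (63.9%), against 16.2% of all genes. Both tamoxifen libraries lay above both vehicle libraries for 25 members (41.0%, against 9.48%), and both lay below for 10 members (16.4%, against 71.9%).

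**Figure D1:**
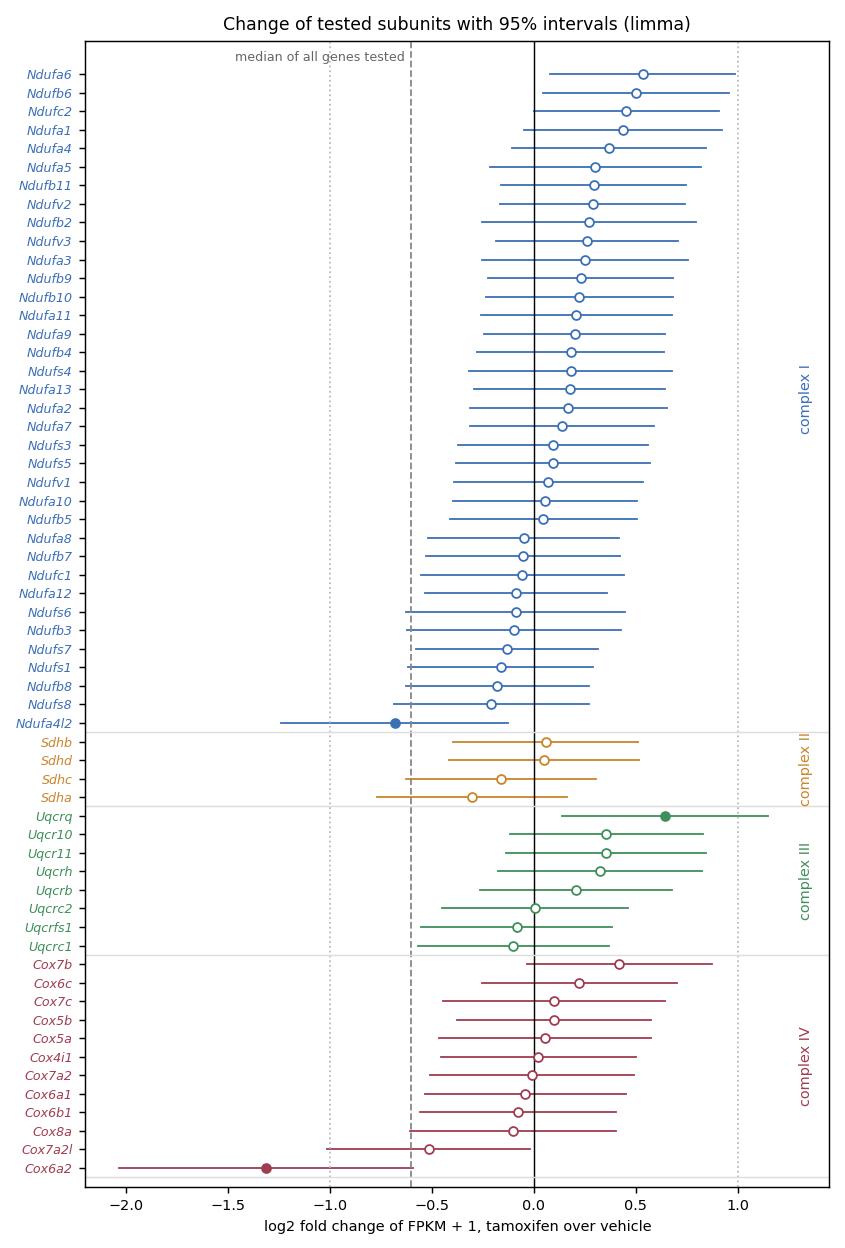
Log2 fold change of FPKM + 1, tamoxifen over vehicle (horizontal axis), for 60 of the tested subunits, grouped by complex and ordered by value; bars are 95% intervals from limma, filled points passed an adjusted p of 0.05, the dashed line is the median of all genes tested (-0.60) and dotted lines mark 2-fold. Most points lie near 0 and right of the dashed line, with Cox6a2 and Ndufa4l2 lowest and Uqcrq highest.

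The position of the members relative to 0 depended on how libraries were scaled. Most genes had lower FPKM after tamoxifen. Of all calls made on FPKM as deposited, 91.6% were lower. Rescaling by median ratios brought the median of all genes to 0.06 and the share of lower calls to 53.9%, and quantile normalization brought them to 0.09 and 50.5%. The members' median was then 0.87 after rescaling by median ratios, with 54 of 61 called higher and 1 lower (background 16.6% higher and 19.4% lower). After quantile normalization it was 0.40, with 14 called higher and 0 lower (background 13.4% higher and 13.7% lower; limma, 61 members tested). Rescaling each library to the same sum (TPM) gave a median of -0.01, with 0 called higher and 3 lower (background 3.69% higher and 53.3% lower, and a median of -0.75 for all genes). On each of these scales the members' median lay above that of all genes tested. The gap was 0.70 on FPKM as deposited, 0.74 on TPM, 0.80 after median ratios and 0.31 after quantile normalization. By complex, the gap after quantile normalization was 0.44 for I, 0.13 for II, 0.36 for III and 0.04 for IV. Of 22 members with a negative log2 fold change on FPKM as deposited, 20 were positive after rescaling by median ratios and 18 after quantile normalization. The members called higher after quantile normalization were 11 of complex I, Uqcr11 and Uqcrq of complex III, and Cox7b of complex IV.

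**Figure D2:**
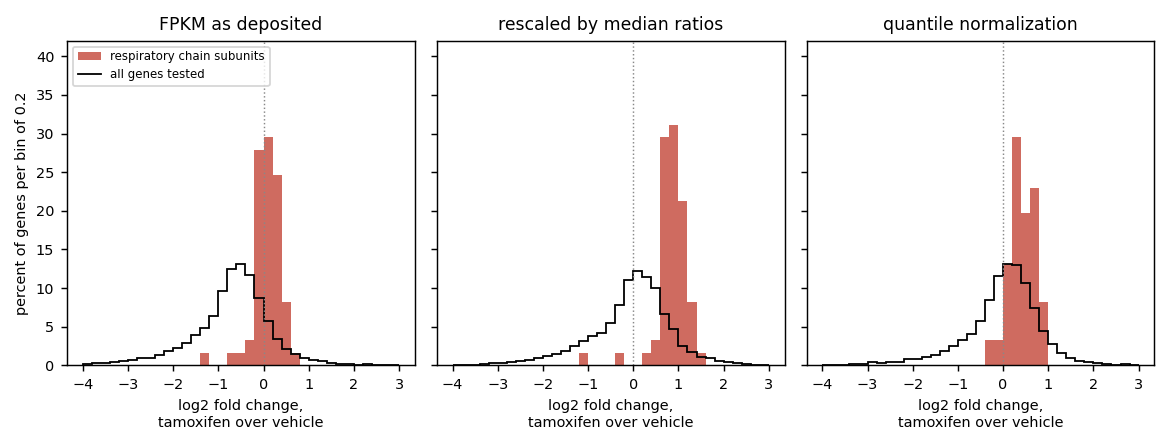
Distribution of log2 fold changes, tamoxifen over vehicle, in bins of 0.2 (horizontal axis) as a percent of genes (vertical axis), for the 61 tested subunits (filled) and all 11633 genes tested (line), on FPKM as deposited, after rescaling by median ratios and after quantile normalization. The subunits form a narrow group to the right of the middle of all genes on each scale, at medians of 0.09, 0.87 and 0.40.

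In complex I, 1 of 37 subunits was lower after tamoxifen and 0 were higher by limma's adjusted p (46.7% and 4.31% of all genes). At an unadjusted p under 0.05, 3 passed (58.9% of all genes). Rescaling by median ratios gave 35 higher and quantile normalization gave 11 (16.6% and 13.4% of all genes). On FPKM as deposited, the median log2 fold change was 0.17, with 25 positive values (0.07 and 20 after rescaling to TPM). Both tamoxifen libraries lay above both vehicle libraries for 18 subunits and below for 6 (9.48% and 71.9% of all genes). The 7 nuclear-encoded core subunits, which hold the flavin and iron-sulfur clusters and the coenzyme Q site, had a median of -0.02. The other 30 genes had a median of 0.18. Most of these encode subunits that surround the core. They also include Ndufa4, which later work placed in complex IV, and its paralog Ndufa4l2, which was the 1 called lower.

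Among the core subunits, Ndufv1, which binds NADH and the flavin, had 45.8 and 50.3 FPKM in tamoxifen libraries and 48.6 and 42.9 FPKM in vehicle libraries. Ndufv2, an iron-sulfur subunit beside it, had 64.4 and 66.0 FPKM in tamoxifen libraries and 50.6 and 55.9 FPKM in vehicle libraries. Ndufs1, the largest subunit, had 34.2 and 32.9 FPKM in tamoxifen libraries, against 35.9 and 39.5 FPKM in vehicle libraries. The groups overlapped for Ndufv1, while both tamoxifen libraries were above the vehicle libraries for Ndufv2 and below them for Ndufs1. Ndufs3 had 65.7 and 64.9 FPKM in tamoxifen libraries and 65.8 and 56.8 FPKM in vehicle libraries, and its groups overlapped. Ndufs7, which carries the last iron-sulfur cluster before coenzyme Q, had 30.1 and 28.4 FPKM in tamoxifen libraries, against 32.5 and 31.8 FPKM in vehicle libraries. Ndufs8, another iron-sulfur subunit, had 41.1 and 33.5 FPKM in tamoxifen libraries, against 41.9 and 44.3 FPKM in vehicle libraries. For both, the tamoxifen libraries were the lower ones, but none of the 7 core subunits passed the test, with log2 fold changes between -0.21 and 0.29.

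The largest positive change in complex I was that of Ndufa6, an accessory subunit of the LYR protein family that sits on the matrix arm. It had 76.6 and 74.2 FPKM in tamoxifen libraries, against 49.4 and 54.2 FPKM in vehicle libraries. The groups did not overlap, but the log2 fold change of 0.53 (standard error 0.20) did not pass (limma adjusted p = 0.052). Ndufb6, an accessory subunit of the membrane arm, had 63.5 and 56.1 FPKM in tamoxifen libraries, against 41.9 and 41.8 FPKM in vehicle libraries, a log2 fold change of 0.50 (limma adjusted p = 0.065). Ndufc2 (log2 fold change 0.45, limma adjusted p = 0.085) and Ndufa1 (0.44, limma adjusted p = 0.112), also of the membrane arm, had the next values. Ndufa6, Ndufb6, Ndufc2 and Ndufa1 passed after quantile normalization. The most abundant gene of the Nduf set was Ndufa4, which later work in mammals placed in complex IV, at 170.1 and 158 FPKM in tamoxifen libraries and 121 and 132 FPKM in vehicle libraries. Its groups did not overlap either, and its log2 fold change of 0.37 did not pass (limma adjusted p = 0.162). By class, the median log2 fold change was 0.19 for 14 Ndufa genes, 0.20 for 10 Ndufb genes, -0.05 for 8 Ndufs genes and 0.26 for 3 Ndufv genes.

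Ndufa4l2, a paralog of Ndufa4 known as a hypoxia-induced gene (ENSMUSG00000040280, chr10:127514967-127517154, plus strand, GRCm38), was the complex I member that passed the test, having met the filter only through the vehicle libraries. It had 0.54 and 0.70 FPKM in tamoxifen libraries, against 1.80 and 1.41 FPKM in vehicle libraries. The groups did not overlap, and the log2 fold change was -0.68 (standard error 0.24, limma adjusted p = 0.045). These values correspond to about 20 fragments in tamoxifen libraries and 61 in vehicle libraries, a ratio of 0.384 with an exact 95% interval from 0.219 to 0.645 that covers counting error only. The log2 fold change was 0.25 after quantile normalization (limma adjusted p = 0.404) and -0.29 after rescaling by median ratios, so its direction depended on the scale. It took 0.316% and 0.442% of the summed Ndufa4 and Ndufa4l2 FPKM in tamoxifen libraries, against 1.46% and 1.06% in vehicle libraries.

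In complex II, 0 of 4 subunits were called in either direction by limma, also at an unadjusted p under 0.05. Of all genes tested, 46.7% were lower and 4.31% higher. The median log2 fold change of the 4 was -0.05. After rescaling by median ratios, 3 were higher (16.6% of all genes). Sdha, the flavoprotein that oxidises succinate, had 74.7 and 75.8 FPKM in tamoxifen libraries, against 99.6 and 87.2 FPKM in vehicle libraries. Both tamoxifen libraries were lower, and the log2 fold change of -0.30 had a 95% interval from -0.77 to 0.16 (limma adjusted p = 0.230) and was 0.48 after rescaling by median ratios. Sdhb, the iron-sulfur subunit, had 83.4 and 79.8 FPKM in tamoxifen libraries and 79.9 and 76.6 FPKM in vehicle libraries. Of the membrane anchors, Sdhc had 56.7 and 48.6 FPKM in tamoxifen libraries, against 60.0 and 57.6 FPKM in vehicle libraries. Sdhd had 82.1 and 87.4 FPKM in tamoxifen libraries and 76.9 and 87.0 FPKM in vehicle libraries. The groups overlapped for Sdhb and Sdhd but not for Sdhc.

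In complex III, 7 of 8 subunits were higher after rescaling by median ratios and 2 after quantile normalization (16.6% and 13.4% of all genes). On FPKM as deposited, 1 was higher and 0 were lower (4.31% and 46.7% of all genes), with a median log2 fold change of 0.27. Uqcrq, a small subunit at the coenzyme Q-binding part of the complex (ENSMUSG00000044894, chr11:53427922-53430831, minus strand, GRCm38), was the member that rose. It had 240.3 and 211 FPKM in tamoxifen libraries, against 133 and 155 FPKM in vehicle libraries. The groups did not overlap, and the log2 fold change was 0.64 (standard error 0.22, 95% interval 0.14 to 1.15, limma adjusted p = 0.040). It was also called higher after rescaling by median ratios (1.44) and quantile normalization (0.75). The call was lost when any 1 of the 4 libraries was left out, with log2 fold changes between 0.54 and 0.75, and when libraries were rescaled to TPM (0.54, limma adjusted p = 0.064).

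The small subunits of complex III split from the large ones. Uqcr10 had 128 and 110.2 FPKM in tamoxifen libraries, against 92.4 and 92.9 FPKM in vehicle libraries. Uqcr11 had 60.2 and 47.2 FPKM in tamoxifen libraries, against 42.2 and 40.8 FPKM in vehicle libraries. Uqcrb had 123 and 107 FPKM in tamoxifen libraries, against 97.9 and 101 FPKM in vehicle libraries. For these genes and for Uqcrh, the hinge protein between cytochromes c1 and c, both tamoxifen libraries were above both vehicle libraries, but their log2 fold changes of 0.21 to 0.36 did not pass. The core proteins Uqcrc1 (log2 fold change -0.10) and Uqcrc2 (0.01) and the Rieske iron-sulfur protein Uqcrfs1 (-0.08) overlapped between groups. That difference between small and large subunits was seen after the values were known and was not tested.

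In complex IV, 1 of 12 tested subunits was lower and 0 were higher by limma (46.7% and 4.31% of all genes). Their median log2 fold change was 0.01, and 2 passed at an unadjusted p under 0.05 (58.9% of all genes). After rescaling by median ratios, 9 were higher and 1 lower (16.6% and 19.4% of all genes). The liver isoforms were among the most abundant members. Cox4i1, which takes part in the regulation of the complex by ATP, had 193 and 187 FPKM in tamoxifen libraries and 185 and 189 FPKM in vehicle libraries. Cox6a1 had 212 and 198 FPKM in tamoxifen libraries and 223 and 199.8 FPKM in vehicle libraries. Cox8a had 237 and 205 FPKM in tamoxifen libraries and 245 and 229 FPKM in vehicle libraries. The groups overlapped for each of these. Cox7b had 99.7 and 97.0 FPKM in tamoxifen libraries, against 72.9 and 73.6 FPKM in vehicle libraries, without overlap (log2 fold change 0.42, limma adjusted p = 0.105). Cox7a2l had 58.8 and 56.4 FPKM in tamoxifen libraries, against 72.9 and 93.9 FPKM in vehicle libraries. Its tamoxifen libraries were both lower, and the log2 fold change was -0.52 (95% interval -1.01 to -0.02, limma adjusted p = 0.077), but it was 0.27 after rescaling by median ratios and -0.25 after quantile normalization.

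Complex IV subunits have isoforms for muscle, lung and testis, and the files held these near 0. Cox6a2, the heart and skeletal muscle form of Cox6a1 (ENSMUSG00000030785, chr7:128205435-128206387, minus strand, GRCm38), was the complex IV member that passed the test, and it too met the filter only through the vehicle libraries. It had 0.08 and 0.18 FPKM in tamoxifen libraries, against 1.13 and 2.69 FPKM in vehicle libraries. The groups did not overlap, and the log2 fold change was -1.31 (standard error 0.31, limma adjusted p = 0.011). This corresponds to 3 fragments over both tamoxifen libraries and 52 over both vehicle libraries, a ratio of 0.0675 with an exact 95% interval from 0.0135 to 0.209 for counting error. It made up 0.038% and 0.091% of the summed Cox6a1 and Cox6a2 FPKM in tamoxifen libraries, against 0.505% and 1.33% in vehicle libraries. The call was kept after rescaling by median ratios (-1.01) but not after quantile normalization (-0.35, limma adjusted p = 0.309), nor without tamoxifen 1 (-1.25, limma adjusted p = 0.057). Without either vehicle library, Cox6a2 and Ndufa4l2 no longer met the filter, and without either tamoxifen library the call of Ndufa4l2 was lost. The 10 striated muscle markers summed to 0.48 and 0.12 FPKM in tamoxifen libraries and 1.58 and 1.87 FPKM in vehicle libraries, with 4 of them at 0 in every library and none reaching the filter. The macrophage, endothelial and stellate markers moved in the same direction as Cox6a2 and Ndufa4l2, with the stellate list at a summed 30.5 and 46.7 FPKM in tamoxifen libraries and 357 and 622 FPKM in vehicle libraries, and their part in these changes was not tested.

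The other minor forms did not reach the filter. Cox4i2, the lung and hypoxia form, was at 0.08 and 0.33 FPKM in tamoxifen libraries and 0.07 and 0.07 FPKM in vehicle libraries. Cox7a1, the muscle form of Cox7a2, was at 0 and 0.61 FPKM in tamoxifen libraries and 0.37 and 0.52 FPKM in vehicle libraries. Cox6b2, the testis form of Cox6b1, was at 0.10 and 0 FPKM in tamoxifen libraries and 0.40 FPKM in each vehicle library. Apart from Cox6a2, no minor complex IV form was above 1 FPKM in any library. Cox7b2 was listed above 0 only in vehicle 2 (0.09 FPKM), and Cox8b and Cox8c were listed at 0 in all 4 libraries. The main forms Cox6b1 (132 and 113 FPKM with tamoxifen, 126 and 133 FPKM with vehicle) and Cox7a2 (84.8 and 67.0 FPKM with tamoxifen, 71.9 and 79.9 FPKM with vehicle) overlapped between groups.

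**Figure D3:**
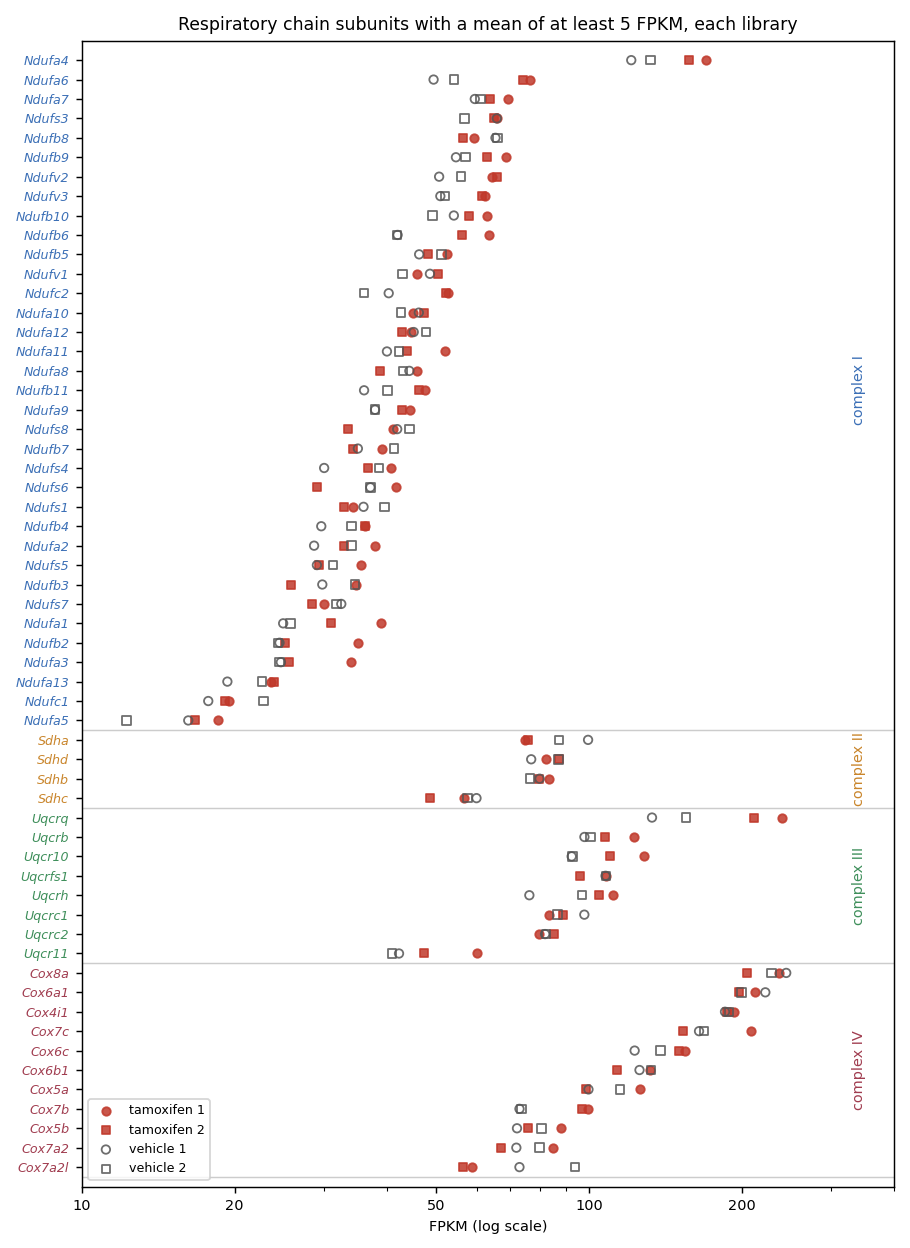
FPKM of 58 subunits with a mean of at least 5 FPKM (horizontal axis, log scale) in each library, tamoxifen as filled and vehicle as open symbols, grouped by complex and ordered by mean. Symbols of a row mostly lie close together, with the filled symbols of Uqcrq, Ndufa6 and Ndufb6 to the right of the open ones and those of Cox7a2l and Sdha to the left.

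The levels of the 59 subunits with a mean of at least 5 FPKM kept nearly the same order in both groups (Pearson r of log2 values 0.967 and Spearman rho 0.963 across genes, which share the libraries and are no replicates). In complex I the median level was 44.7 and 42.8 FPKM in tamoxifen libraries and 40.1 and 41.5 FPKM in vehicle libraries. In complex II it was 78.4 and 77.8 FPKM in tamoxifen libraries and 78.4 and 81.8 FPKM in vehicle libraries. In complex III it was 109.7 and 100.2 FPKM in tamoxifen libraries and 95.2 and 94.8 FPKM in vehicle libraries. In complex IV it was 132 and 113 FPKM in tamoxifen libraries and 123 and 133 FPKM in vehicle libraries. FPKM are per transcript length, so these levels can be set side by side, and complex I was lowest and complex IV highest in each library. Levels within complex I ran from 12.2 FPKM for Ndufa5 to 132 FPKM for Ndufa4 in vehicle 2. All 67 genes together summed to 4629 and 4216 FPKM in tamoxifen libraries and 4035 and 4158 FPKM in vehicle libraries, which was 0.805% and 0.740% of all FPKM with tamoxifen and 0.749% and 0.792% with vehicle. These shares overlapped between groups. Without the mitochondrially encoded genes they were 1.0965% and 1.0241% with tamoxifen and 1.0235% and 1.0068% with vehicle, just short of overlap. By complex, the share of complex II was lower with tamoxifen (0.0516% and 0.0512%, against 0.0588% and 0.0587%). That of complex III was higher (0.162% and 0.149%, against 0.135% and 0.145%), and those of complexes I and IV overlapped. In vehicle 2, 40 of 61 members were higher than in vehicle 1 (65.6%, against 70.9% of all genes), at a median difference of 0.036 for members and 0.20 for all genes on the log2 scale. The members' median absolute treatment difference was 0.18, against 0.67 for all genes tested.

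Other genes of the pathway came from lists written with earlier results of these data known. The 13 subunits encoded in mitochondrial DNA had 0 calls by limma, with 1 at an unadjusted p under 0.05, and a median log2 fold change of 0.29. After quantile normalization the median was -0.04, with 1 called lower and 1 higher (13.7% and 13.4% of all genes). These 13 subunits held 26.6% and 27.7% of all FPKM in tamoxifen libraries and 26.8% and 21.3% in vehicle libraries. mt-Nd2, a membrane-arm subunit of complex I, had 9129 and 11745 FPKM in tamoxifen libraries, against 6268 and 3701 FPKM in vehicle libraries (log2 fold change 1.10, limma adjusted p = 0.060). Of 18 complex V genes, 1 was lower and 0 were higher (46.7% and 4.31% of all genes), with a median of 0.08. After median ratios, 15 were higher and 0 lower at a median of 0.87 (16.6% and 19.4% of all genes). After quantile normalization, 1 was higher and 1 lower at a median of 0.30 (13.4% and 13.7% of all genes). The gene lower on FPKM as deposited was Atpif1, the inhibitor that blocks ATP hydrolysis by complex V. It had 15.4 and 18.2 FPKM in tamoxifen libraries and 37.2 and 51.6 FPKM in vehicle libraries (log2 fold change -1.33, standard error 0.23, limma adjusted p = 0.0038). Atpif1 was at -0.57 after rescaling by median ratios (limma adjusted p = 0.073) and at -0.84 after quantile normalization (limma adjusted p = 0.039). Atp5b, the catalytic subunit, had 347 and 350.2 FPKM in tamoxifen libraries, against 409 and 384 FPKM in vehicle libraries, and did not pass.

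Assembly factors, which build the complexes without staying in them, had median log2 fold changes of -0.18 for 15 complex I factors, -0.45 for 5 complex III factors and -0.17 for 22 complex IV factors, each below that of the subunits of the same complex. That order turned for complex IV after quantile normalization, at 0.57 for its factors and 0.13 for its subunits, and complex I was then at 0.53 for both. Complex II had the other order on FPKM as deposited, at 0.04 for its 4 factors and -0.05 for its subunits. Quantile normalization kept that order (0.80 and 0.22), and rescaling by median ratios did not (0.62 and 0.73). On FPKM as deposited, neither complex I nor complex III factors had a call (limma; 3 complex I factors and 0 complex III factors passed at an unadjusted p under 0.05). Rescaling by median ratios gave 5 higher and quantile normalization gave 4 higher for complex I, and each gave 1 higher for complex III. Of all genes tested, 16.6% and 13.4% were higher on these scales. For complex IV, 3 factors were lower and 2 higher, where 46.7% of all genes were lower and 4.31% higher, and both other scalings gave 0 lower, with 9 higher after median ratios and 6 higher after quantile normalization. Coa5 had 17.3 and 14.2 FPKM in tamoxifen libraries, against 30.2 and 32.3 FPKM in vehicle libraries (log2 fold change -0.95, limma adjusted p = 0.008). Sco1, a copper chaperone, was at -0.84 and Coa3 at -0.66, while Cox20 and Coa6 were each at 0.59. For complex II, Sdhaf2, which inserts the flavin into Sdha, had 8.74 and 6.42 FPKM in tamoxifen libraries, against 13.46 and 13.99 FPKM in vehicle libraries (log2 fold change -0.79, limma adjusted p = 0.023). Sdhaf3 (0.17) and Sdhaf4 (0.096) were positive and not called. The calls of Coa5, Sco1, Coa3 and Sdhaf2 were lost after either rescaling by median ratios or quantile normalization, where Coa3 took a positive sign with the first (0.10) and Sco1 with the second (0.058), and those of Cox20 and Coa6 were kept.

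The enzymes of the TCA cycle, which feed the chain, had a lower median than its subunits, as on the other scales. Of 14 TCA cycle genes, 5 were lower and 0 higher, with a median of -0.37, where all genes tested had 46.7% lower and a median of -0.60. Rescaling by median ratios turned this to 5 higher and 0 lower (16.6% and 19.4% of all genes). With quantile normalization 1 was lower and 0 were higher (13.7% and 13.4% of all genes). Cs, citrate synthase, which opens the cycle, had 31.7 and 24.1 FPKM in tamoxifen libraries, against 67.3 and 59.0 FPKM in vehicle libraries. Its groups lay far apart (log2 fold change -1.16, standard error 0.22, limma adjusted p = 0.005), and it was the TCA cycle gene still called lower after quantile normalization (-0.78). Ogdh, the first subunit of the oxoglutarate dehydrogenase complex, had 32.9 and 31.2 FPKM in tamoxifen libraries, against 55.1 and 49.1 FPKM in vehicle libraries (log2 fold change -0.68, limma adjusted p = 0.023). Idh3a and Idh3g, subunits of NAD-dependent isocitrate dehydrogenase, were also lower, at -0.62 and -0.59. Mdh2 had 129 and 108 FPKM in tamoxifen libraries, against 177 and 144 FPKM in vehicle libraries, and did not pass. Of 6 tested electron carrier genes and subunits outside the symbol rule, none was called (limma; 0 at an unadjusted p under 0.05), and Cycs, cytochrome c, had 25.5 and 23.5 FPKM in tamoxifen libraries and 30.9 and 29.8 FPKM in vehicle libraries. Of 13 coenzyme Q synthesis genes, 1 was higher (4.31% of all genes). There were 5 higher after median ratios and 5 after quantile normalization (16.6% and 13.4% of all genes). Coq8a, an atypical kinase of that pathway, had 64.8 and 61.0 FPKM in tamoxifen libraries, against 47.3 and 25.0 FPKM in vehicle libraries (log2 fold change 0.85, limma adjusted p = 0.046; 0.057 after quantile normalization).

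**Figure D4:**
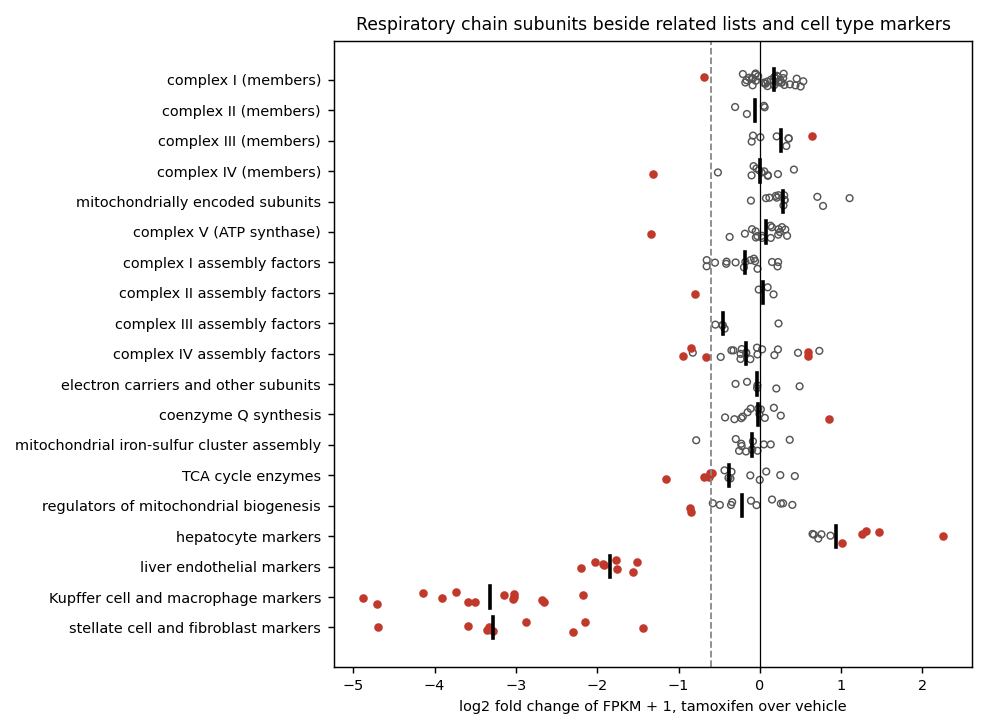
Log2 fold change of FPKM + 1, tamoxifen over vehicle (horizontal axis), of each tested gene in complexes I to IV, related lists and cell type markers; red points passed limma's adjusted p of 0.05, black bars are list medians and the dashed line is the median of all genes tested. The complexes lie near 0, TCA cycle enzymes are centred at -0.37, and macrophage and stellate markers lie at medians of -3.32 and -3.29.

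The members' coding sequences are mostly short, with coding lengths between 168 and 2181 bases, against a median of 1353 bases for all protein-coding genes tested. Across the 59 members with a mean of at least 5 FPKM, the log2 fold change was related to the log2 coding length with r = -0.37 (Spearman rho -0.37; r = -0.17 and rho -0.30 over all 61 tested members), against -0.07 over all protein-coding genes tested, as a description across genes that share the 4 libraries. Libraries of the same group also differed from each other with length. The difference of tamoxifen 2 minus tamoxifen 1 had r = 0.58 with coding length over the same members, against 0.16 over all protein-coding genes. The difference of vehicle 2 minus vehicle 1 had r = -0.31 over these members, against -0.03 over all protein-coding genes. Of 30 members at or under 411 bases, 29 were lower in tamoxifen 2 than in tamoxifen 1, with a median difference of -0.19, and their median log2 fold change between groups was 0.19. Of 29 longer members, 20 were lower in tamoxifen 2, with a median difference of -0.05, and their median log2 fold change was 0.05. Uqcrq, with a coding length of 246 bases, and the other small subunits of complex III are among the members with short coding sequences. Uqcrq has 4 annotated transcripts, and the one taken for its length, the longest of those considered, had 1521 bases. Which of them these libraries held is not known. The part of length in the group differences was not tested.

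**Figure D5:**
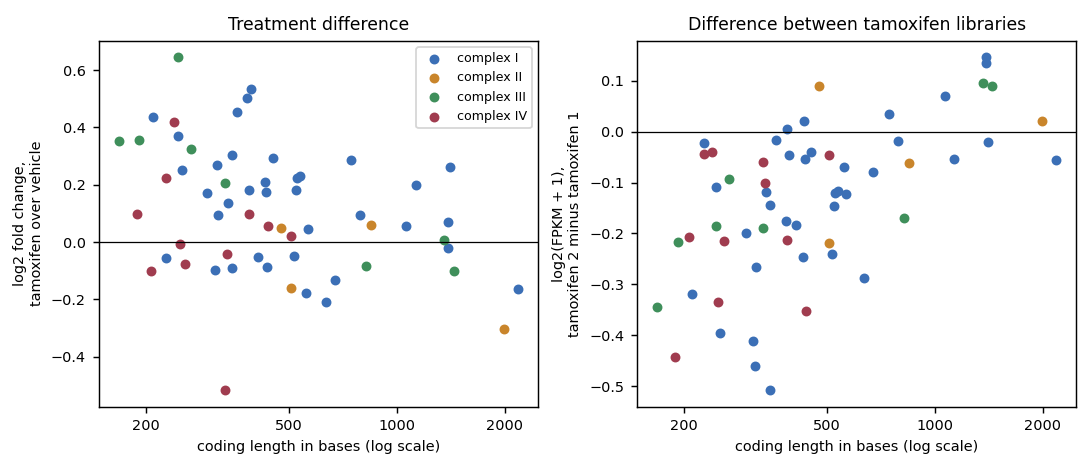
Coding length in bases (horizontal axis, log scale) of the 59 subunits with a mean of at least 5 FPKM, against the log2 fold change of tamoxifen over vehicle (left) and the difference in log2(FPKM + 1) of tamoxifen 2 minus tamoxifen 1 (right), coloured by complex. Short subunits spread upward on the left, where r is -0.37, and lie mostly below 0 on the right, where r is 0.58.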

How the data were processed

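Messenger RNA of isolated hepatocytes was sequenced in 2 tamoxifen and 2 vehicle libraries. The authors deposited FPKM values per gene, rounded to 2 decimals. The submitters' processing notes name HISAT2, StringTie 1.3.1, RSEM, Bowtie2 and fastp 0.18.0 without their roles; for build and annotation, these are not stated there or in the paper's methods. Without read counts, the steps between low FPKM values, multiplied by transcript length, gave an estimate of depth, and the shallowest library had 80.3% of the depth of the deepest. Symbols, coordinates and coding lengths come from GENCODE M21 (GRCm38), which matched 22255 of 22298 gene IDs; promoter sequences come from RefSeq. GENCODE calls Ndufb1-ps non-coding, so it was not counted.

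Values were analysed as log2(FPKM + 1), so fold changes of low genes are understated. R 4.3.3 and limma 3.58.1 (lmFit, eBayes with trend) were used for genes that 2 or more of the 4 libraries held at 1 FPKM or above, with Benjamini-Hochberg adjustment over all 11633 tested and a threshold of 0.05. The procedure was tested on simulated data in which few genes changed, in either direction, with the same spread for every gene. Those data lack the broad fall in FPKM seen here, so that test does not cover it. Members and lists were chosen with earlier results of these data known. The genes named are, in each complex, the 3 with the largest changes and the 3 with the highest means, the tissue isoforms, the core of complex I, complex II, and from each other list the 2 with the largest changes and the one with the highest mean; others were chosen after their values were seen. Some genes that this rule would name are left out of the text and plots but kept in counts and medians. Alternatives were 3 other scalings, a pseudocount of 0.1, no filter, a mean of at least 5 FPKM, sample weights, the replicate number as a block, and each library left out. Some of these genes have processed pseudogenes, and how shared reads were counted is not stated there either. Plots used matplotlib 3.10.9 in Python 3.11.15.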

Additional observations from a re-analysis of the deposited data

How the results depend on the processing

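With 2 libraries per group and depth known only by estimate, no member with an absolute log2 fold change under 0.64 passed the test, and low members rest on few fragments. After rescaling by median ratios, 1 member was called lower and 54 higher at a median log2 fold change of 0.87, and the calls were 35 in complex I, 3 in complex II, 7 in complex III and 10 in complex IV. Of 22 negative members, 20 turned positive there; of genes reported here under the naming rule, those that turned and were called on either scale were Sdhc (0.62), Cox6a1 (0.75), Cox6b1 (0.71), Cox7a2 (0.78), Ndufs1 (0.61), Ndufs7 (0.64), Higd2a (0.66) and Ogdh (0.094). After quantile normalization, 0 members were lower and 14 higher at a median of 0.40, with 11 calls in complex I and 2 in complex III, and 18 of the 22 negative members turned positive, among them Ndufa4l2 (0.25), as did Sco1 (0.058), both called on FPKM as deposited. Rescaling to TPM gave 0 higher, a median of -0.011, 0 calls in complex III and 2 in complex IV. Without a filter on low values, complex I had 2 calls, complex III had 0 and complex IV had 2. With a mean of at least 5 FPKM required, 0 members were lower and 0 higher, so complexes I, III and IV had 0 calls; Cox6a2 and Ndufa4l2 do not meet that filter. Other than where the alternative's construction shows it, the cause was not tested. With each library left out in turn, 0 to 1 members were called lower and 0 higher, with 0 calls in complex I, 0 in complex III and 0 to 1 in complex IV, and the median ran from 0.054 to 0.17; the lone sample is there assumed to vary like the other group. With the replicate block, 1 member was lower and 0 of complex I were called, since Ndufa4l2 lost its call (limma adjusted p = 0.062). Same-numbered libraries deviated together with a correlation of 0.28 over 11633 genes, but with 2 pairs they share only a number. A pseudocount of 0.1 and sample weights changed no call among the 26 tested members that the rule named.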

Other observations

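The regulators of mitochondrial biogenesis included a pair of called genes. Of 12 tested, 2 were lower and 0 higher by limma's adjusted p, where 46.7% of all genes tested were lower and 4.31% higher. The 12 had a median log2 fold change of -0.22, against -0.60 for all genes tested. After quantile normalization 0 were lower and 3 higher (background 13.7% lower and 13.4% higher). Nrf1, a transcription factor of respiratory chain genes, had 3.29 and 3.07 FPKM in tamoxifen libraries, against 5.00 and 8.60 FPKM in vehicle libraries (log2 fold change -0.86, limma adjusted p = 0.035; -0.03 after quantile normalization). Pprc1, a coactivator of the same family as PGC-1α, had 3.22 and 3.14 FPKM in tamoxifen libraries, against 5.78 and 7.36 FPKM in vehicle libraries (log2 fold change -0.85, limma adjusted p = 0.019; -0.01 after quantile normalization). Ppargc1a, which encodes PGC-1α, had 3.05 and 10.7 FPKM in tamoxifen libraries and 4.35 and 4.09 FPKM in vehicle libraries, so the tamoxifen libraries stood on either side of the vehicle ones. Tfam, which packages and transcribes mitochondrial DNA, had 25.2 and 23.2 FPKM in tamoxifen libraries and 17.3 and 23.2 FPKM in vehicle libraries.

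The 13 genes of mitochondrial iron-sulfur cluster assembly, which make the clusters that complexes I, II and III carry, had 0 calls by limma. Their median log2 fold change was -0.10, and 1 passed at an unadjusted p under 0.05. The median was 0.68 after rescaling by median ratios, with 8 called higher, and 0.46 after quantile normalization, with 1 called higher. Of all genes tested, 16.6% and 13.4% were called higher on these scales. Hspa9, the chaperone of that pathway and its most abundant gene, had 219 and 198 FPKM in tamoxifen libraries, against 289.7 and 204 FPKM in vehicle libraries.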
